A study of Mus musculus with 9 samples.

Results

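Genes that are commonly read as signs of macrophage polarization, or that encode macrophage scavenger receptors, were examined in whole-tumor RNA-Seq of mouse osteosarcoma. They were chosen by gene symbol as a fixed list, namely Mrc1, Cd163, Msr1, Mertk, Arg1, Chil3, Retnla, Il10, Nos2 and Cd86, and they make up 10 of the 55367 genes in the deposited count table. All 10 were found there, and 8 of them had enough counts to be tested, among 15365 genes tested in all. Retnla and Il10 did not.

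The tumors came from genetically engineered mouse models (GEMMs) in which osteosarcoma arose spontaneously. In the p53-driven GEMM, of genotype Col2.3-Cre/TrpP53fl/+, Cre recombinase under the osteoblast promoter Col2.3 acts on 1 floxed copy of the gene for p53, and 4 tumors were sequenced (F187, F325, F331 and F368). The Myc-knockin GEMM adds to the same Cre and p53fl/+ background a c-MycT58A allele behind a Lox-Stop-Lox (LSL) cassette, which Cre removes, and 5 of its tumors were sequenced (M351, M408, M9, M624 and M664). Both groups therefore share the Cre transgene and the floxed p53 allele, and the p53-driven tumors are the comparison group. Whole tumors were used, so the RNA came from tumor cells, macrophages, osteoclasts, vessels and adjacent tissue together. For any gene of macrophages, fewer cells and less RNA per cell cannot be told apart. The labels give no age, litter or batch, and the p values measure only the spread between these tumors.

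Macrophages take on different programs according to the signals they meet. Interferon-gamma and bacterial products induce the classical program, in which nitric oxide synthase (Nos2) turns arginine into nitric oxide and costimulatory ligands such as Cd86 are displayed to T cells. IL-4 and IL-13, acting through STAT6, induce the alternative program in mice, whose usual markers are arginase 1 (Arg1), the chitinase-like protein Chil3 (Ym1) and the resistin-like protein Retnla (Fizz1). Scavenger receptors such as Mrc1 (CD206, the mannose receptor), Cd163 (the haptoglobin-hemoglobin receptor) and Msr1 (the class A receptor for modified lipoproteins) are carried by many resident and tumor-associated macrophages. Mertk is the receptor tyrosine kinase by which macrophages take up apoptotic cells, and Il10 encodes an anti-inflammatory cytokine. None of these genes marks macrophages alone, and Arg1 and Chil3 are also made by neutrophils and other myeloid cells.

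The 250 bases before the RefSeq start (GRCm38.p6) were available for 5 of the genes, Mrc1, Cd163, Mertk, Chil3 and Retnla. They were searched on both strands for TTC and GAA held 4 bases apart, the spacing that STAT6 prefers, for the same letters 3 bases apart, the spacing of other STAT factors, for GAGGAA, the core that the myeloid factor PU.1 binds, and for the AP-1 element TGANTCA. The motifs could overlap one another. The promoters of Mrc1, Chil3 and Retnla are shown because they hold the matches that were found, with the matched letters in capitals, and they stop where the GENCODE gene begins. The Mrc1 promoter (chr2:14229164-14229391, + strand) held 3 PU.1 matches. The Chil3 promoter (chr3:106167565-106167814, - strand) held 1 STAT match, and the Retnla promoter (chr16:48842359-48842550, + strand) held 1 PU.1 match and, further downstream, 1 STAT6 match.
Mrc1: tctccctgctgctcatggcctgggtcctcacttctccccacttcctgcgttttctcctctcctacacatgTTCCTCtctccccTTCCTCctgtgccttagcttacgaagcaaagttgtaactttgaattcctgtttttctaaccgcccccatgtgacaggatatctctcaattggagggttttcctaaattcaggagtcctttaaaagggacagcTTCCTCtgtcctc
Chil3: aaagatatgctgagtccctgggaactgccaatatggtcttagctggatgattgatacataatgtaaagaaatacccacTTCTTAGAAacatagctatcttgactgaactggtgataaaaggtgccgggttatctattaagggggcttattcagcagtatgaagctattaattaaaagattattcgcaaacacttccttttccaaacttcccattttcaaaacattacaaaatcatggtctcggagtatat
Retnla: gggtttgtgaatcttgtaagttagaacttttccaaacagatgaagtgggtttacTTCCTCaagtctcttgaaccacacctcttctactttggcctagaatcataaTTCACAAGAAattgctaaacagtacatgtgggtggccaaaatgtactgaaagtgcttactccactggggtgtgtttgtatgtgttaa
The STAT6 spacing was found in 5.85%, the other STAT spacing in 7.02%, the PU.1 core in 23.3% and the AP-1 element in 6.75% of 32851 mouse promoters of the same length. Neither the Cd163 nor the Mertk window held any of these letters. The promoters of Chil3 and of its neighbor Chil4 were identical at 201 of 221 aligned bases (91.0%) and both held the same STAT match. This closeness extends to the transcripts. Of the 1605 windows of 76 bases along the Chil3 transcripts, 201 (12.5%) also occur in Chil4 or in Gm6522, whereas no window of the other 9 genes is shared with another gene. Chil3 counts are thus uncertain where reads were divided between copies. No exon of the 10 genes overlaps an exon of another gene.

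Depth and library make-up differed among the tumors in ways that bear on these genes. Total counts ranged from 2716322 in M351 to 17073285 in M624. In 4 libraries a large share of the counts lay on 12 satellite-repeat genes, namely 44.3% in F187, 67.9% in M351, 23.2% in M408 and 81.0% in M9, against at most 0.0242% in the other 5. M624 and M664 also stood apart, with 5.33 and 9.32 CPM on the small RNA gene Rn7sk, relative to the counts outside the satellite genes, where every other library had at least 8858. Values below are CPM, the count of a gene relative to its library's size after TMM normalization, scaled to 1e6. A gene with 3 counts has 0.114 CPM in M624 and 2.39 CPM in M9, so low values are far less certain in the shallow libraries. The 14 macrophage markers used as a yardstick, among them the genes of C1q and Csf1r, had a geometric mean of 31.9 to 50.8 CPM in the p53-driven and 13.6 to 56.5 CPM in the Myc-knockin tumors.

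The scavenger and uptake receptors had lower means in the Myc-knockin tumors and Arg1 and Chil3 had higher ones, but none of the 8 genes tested passed edgeR's quasi-likelihood test. A gene was called at a Benjamini-Hochberg adjusted p under 0.05 over all genes tested and a fold over 1.5, which 5.27% of all 15365 genes met. At an unadjusted p under 0.05 there were 2 of the 8, Arg1 and Mertk, against 26.8% of all genes. DESeq2 called 1 of the 8, Arg1, where it called 17.2% of all genes, and limma-voom called 0 of the 8 and 10.8% of all genes. The values of the groups overlapped for each of the 10 genes, where 13% of all genes tested had groups without overlap. The median log2 fold change, Myc-knockin over p53-driven, was -0.14 over the 8 genes, with 3 above and 5 below 0, and 0.14 over all genes tested.

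**Figure D1:**
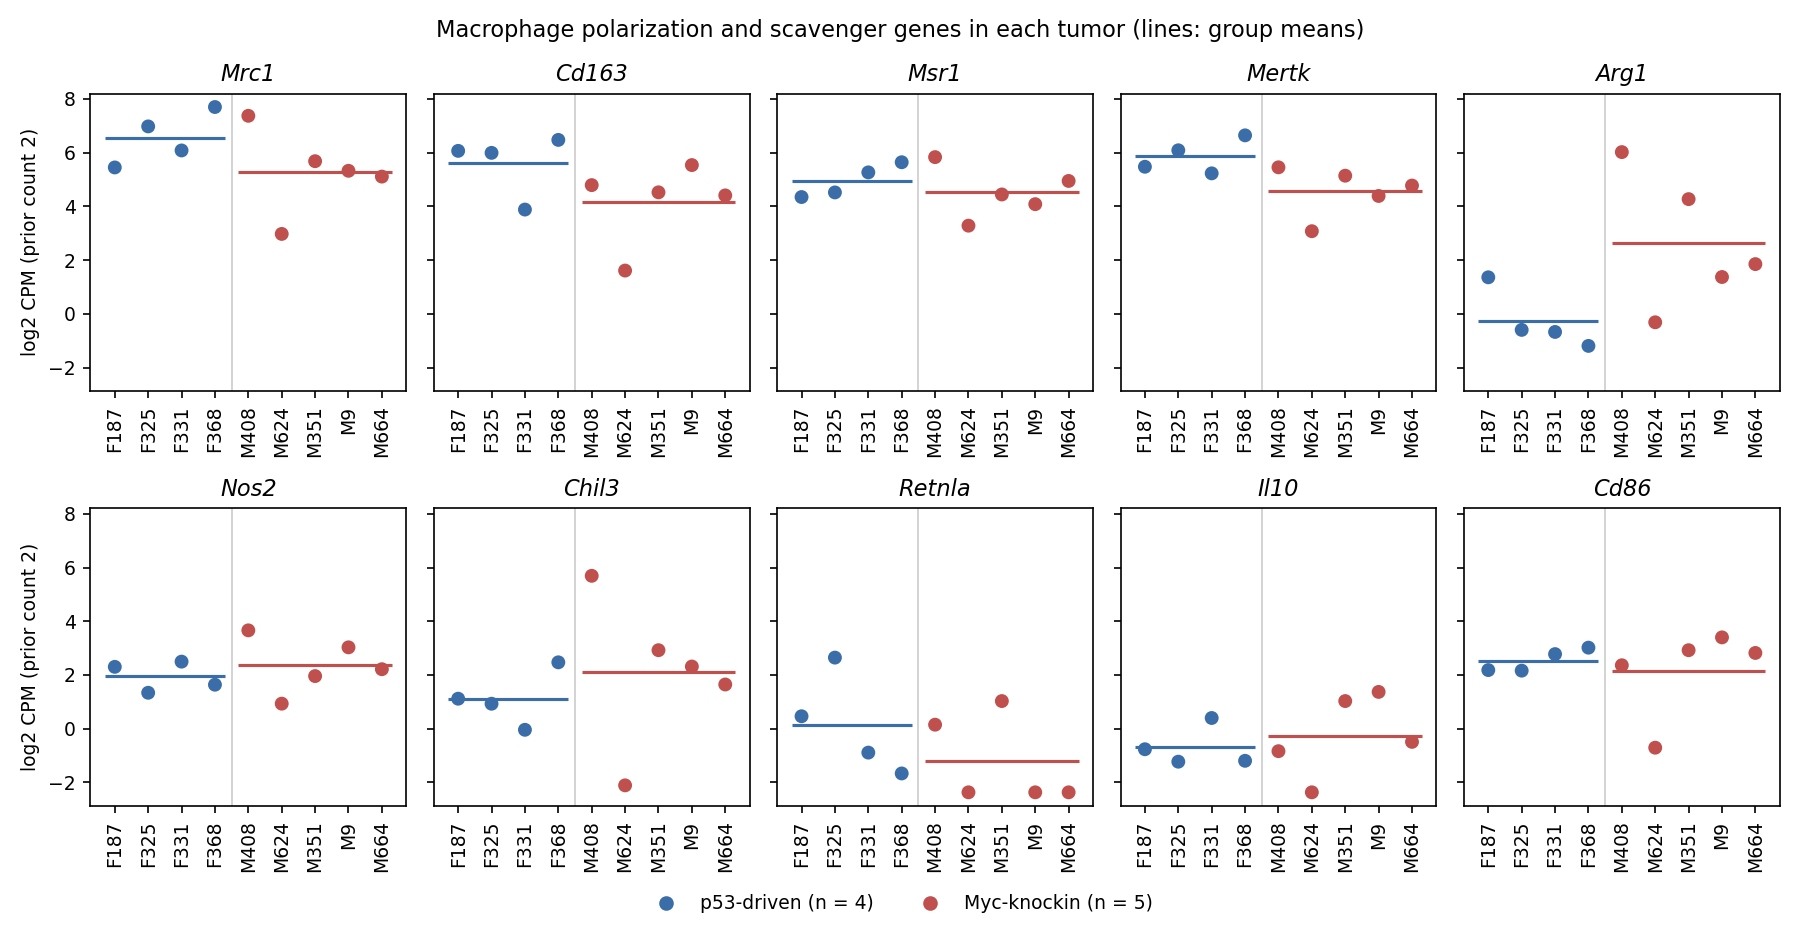
Log2 CPM (with a prior count of 2) of each of the 10 genes in the 4 p53-driven tumors (blue) and the 5 Myc-knockin tumors (red), with 1 point per tumor and a line at each group's mean. Every panel shows overlap between the groups, M408 is highest for Arg1 and Chil3, and M624 is lowest for Mrc1, Cd163, Msr1, Mertk, Nos2, Chil3 and Cd86.

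Among the scavenger receptors, Mrc1 (ENSMUSG00000026712, chromosome 2 of mm10, 14229392 to 14332057) was the most abundant of the 10 genes per kilobase of exon, and its groups overlapped widely. Mrc1 had 43.4 CPM in F187, 126 in F325, 67.5 in F331 and 207 in F368, the p53-driven tumors. The Myc-knockin tumors had 165 in M408, 7.66 in M624, 51.1 in M351, 39.8 in M9 and 34.3 CPM in M664. All Myc-knockin tumors but M408 thus lay below the middle of the p53-driven range, and M408 lay above all p53-driven tumors but F368. The means were 111 ± 72.9 (SD, n = 4) and 59.6 ± 61.1 CPM (SD, n = 5), a log2 fold change of -0.90 (standard error 0.71, edgeR adjusted p = 0.451). Without the 4 libraries that hold satellite reads, 3 p53-driven tumors were left against M624 and M664. Mrc1 was then called lower (log2 fold change -2.63, edgeR adjusted p = 0.0496), in a fit that called 27.9% of all genes. M624 and M664 are also the libraries nearly without Rn7sk reads, so genotype and library make-up cannot be told apart in that fit.

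Cd163 (ENSMUSG00000008845, chromosome 6, 124304656 to 124330527), the receptor that clears hemoglobin bound to haptoglobin, was lower on average in the Myc-knockin tumors without passing the test. It had 66.8, 63.4, 14.5 and 88.6 CPM in F187, F325, F331 and F368. The Myc-knockin tumors had 27.5 in M408, 2.86 in M624, 22.8 in M351, 46.2 in M9 and 21.0 CPM in M664. All 5 Myc-knockin tumors were below F187, F325 and F368, and F331 was within their range. Cd163 had a log2 fold change of -1.31 (standard error 0.66, edgeR adjusted p = 0.225), between means of 58.3 ± 31.3 (SD, n = 4) and 24.1 ± 15.5 CPM (SD, n = 5). Counted against Mrc1 in the same tumor, Cd163 made up 17.7% to 60.6% of the counts of the pair in p53-driven and 14.3% to 53.7% in Myc-knockin tumors, so the balance between these receptors varied as much within each group as between them.

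Msr1 (ENSMUSG00000025044, chromosome 8, 39581685 to 39642673), which takes up oxidized and acetylated lipoproteins, had close group means. Its values were 20.1, 22.7, 38.2 and 49.7 CPM in F187, F325, F331 and F368, and 56.8 in M408, 9.53 in M624, 21.5 in M351, 16.7 in M9 and 30.6 CPM in M664. Both the highest and the lowest tumor were Myc-knockin. The log2 fold change was -0.27 (standard error 0.49, edgeR adjusted p = 0.760), and it turned to 0.03 without M624.

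Mertk (ENSMUSG00000014361, chromosome 2, 128698956 to 128802894), the receptor for apoptotic cells, had the smallest standard error of the 8 genes. It had 44.2, 67.7, 37.3 and 99.7 CPM in F187, F325, F331 and F368. In the Myc-knockin tumors Mertk had 43.6 in M408, 8.23 in M624, 35.1 in M351, 20.7 in M9 and 27.2 CPM in M664. M624, M351, M9 and M664 were below every p53-driven tumor, and M408 was above F331 and just under F187. The log2 fold change was -1.21 (standard error 0.46), with an unadjusted p of 0.0219 and an edgeR adjusted p of 0.121, and it lay between -1.45 and -0.90 when each tumor was left out in turn.

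Of the genes of the alternative program, Arg1 (ENSMUSG00000019987, chromosome 10, 24915221 to 24927484) showed the largest difference. It had 2.37, 0.467, 0.432 and 0.243 CPM in F187, F325, F331 and F368, which rest on 6, 6, 5 and 2 counts. The Myc-knockin tumors had 64.6 in M408, 0.610 in M624, 19.1 in M351, 2.39 in M9 and 3.41 CPM in M664, from 353, 16, 31, 3 and 79 counts. Every Myc-knockin tumor but M624 was above F187, M9 only just so, and M624 was above the other 3 p53-driven tumors. The means were 0.878 ± 0.999 (SD, n = 4) and 18.0 ± 27.1 CPM (SD, n = 5), and the SD of the Myc-knockin group was larger than its mean. Arg1 had a log2 fold change of 4.71 (standard error 1.39, edgeR adjusted p = 0.0680).

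The Arg1 result sits close to the threshold and rests on few libraries. DESeq2 called Arg1 higher (log2 fold change 4.56, adjusted p = 0.00092), and edgeR did so without M624 (adjusted p = 0.0450), without M9 (adjusted p = 0.0469) and when every gene with at least 1 count was tested (adjusted p = 0.0264). These 3 fits called 2.62%, 10.4% and 1.04% of all genes. Arg1 passed the filter on low counts through M408, M351, M664 and F187, and it was no longer tested once M408, M351 or M664 was left out. From reads on chemosensory receptor genes, which these tumors should not transcribe, 1.59 of the 6 counts in F187, 2.50 of the 31 in M351 and 2.77 of the 3 in M9 would be background. The M9 value is therefore near the level of background alone. The libraries with satellite reads include 1 p53-driven tumor only, so no test was run within them, and Arg1 there was 2.37 CPM in F187 against 64.6 in M408, 19.1 in M351 and 2.39 in M9.

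Chil3 (ENSMUSG00000040809, chromosome 3, 106147554 to 106167564), a secreted chitinase-like lectin, was high in the same tumor. Its values were 1.97, 1.71, 0.778 and 5.35 CPM in F187, F325, F331 and F368. In the Myc-knockin tumors Chil3 had 51.5 in M408, 0.0381 in M624, 7.39 in M351, 4.78 in M9 and 2.94 CPM in M664, which for M624 is a single count. M408 and M351 were above all p53-driven tumors, M9 and M664 were within their range and M624 was below it. The log2 fold change was 2.45 (standard error 1.30, edgeR adjusted p = 0.253), it was 0.55 without M408, and it was -0.75 without the 4 satellite-bearing libraries. Counts on the related Chil4 were 8 in F187, 18 in M351, 12 in M9 and at most 1 in the other tumors, so the M408 counts on Chil3 were not accompanied by counts on Chil4.

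Retnla (ENSMUSG00000061100, chromosome 16, 48842551 to 48844461), the other usual marker of the alternative program, did not follow Arg1 or Chil3. It had 78 counts in the p53-driven tumor F325 (6.07 CPM), and 3, 4 and 1 counts in F187, F331 and F368. The Myc-knockin tumors M408 and M351 had 5 and 3 counts, and M624, M9 and M664 had 0, which allows up to 0.114, 2.39 and 0.130 CPM. F325 was also the tumor with the highest sum over 7 skeletal muscle markers, 4826 CPM against 2.67 to 1803 in the others, and the part of adjacent tissue in its Retnla counts was not tested.

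The neutrophil markers S100a8 and S100a9 were highest in M408 and next highest in M351, as were Arg1 and Chil3. S100a8 and S100a9, which encode the calprotectin subunits, had 41.9 and 62.8 CPM in M408 and 4.31 and 13.5 CPM in M351. Neither gene exceeded 3.89 CPM in any other tumor. The S100a8 value of M351 is little above that and rests on few counts, since 3 counts make 1.85 CPM there. Summed over 10 neutrophil markers, the level was 161 CPM in M408 and 40.0 in M351, against 5.44 to 21.3 in the p53-driven group and 3.89 to 23.9 in M624, M9 and M664. Background was estimated at 1.12 counts per kilobase of exon in M351, and the sums were not corrected for it. Of these 10 markers 5 were tested and edgeR called 0 of them. Their log2 fold changes were positive for 4 and negative for 1, from -1.36 to 3.02. Ly6g had 0 counts in every p53-driven tumor and in M624 and M664. The sum over 6 monocyte markers was highest in M408 too, at 92.3 CPM, and lowest in M624, at 3.81. The part of neutrophils or monocytes in the Arg1 and Chil3 values was not tested.

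**Figure D2:**
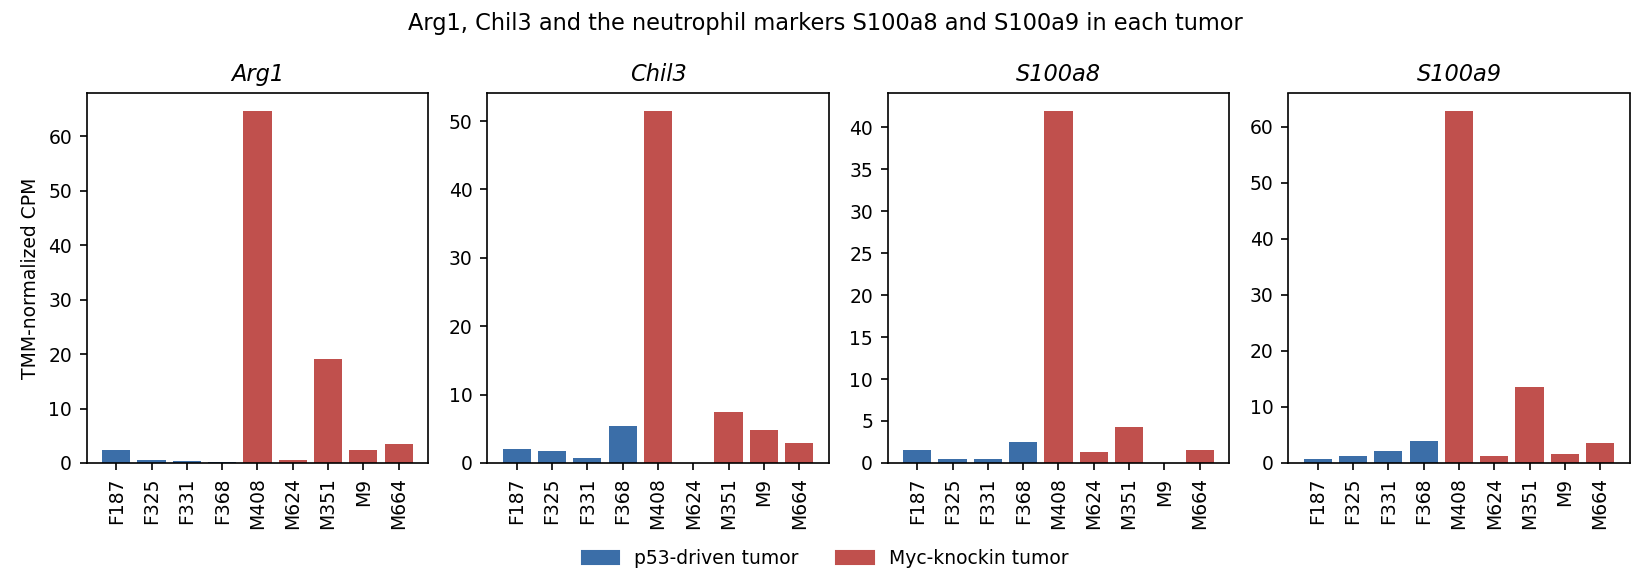
TMM-normalized CPM of Arg1, Chil3, S100a8 and S100a9 in each tumor, with 1 bar per tumor on a linear axis of its own for each gene and the p53-driven tumors in blue. M408 is the tallest bar in all 4 panels, and M351 comes next for each of the 4 genes.

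Of the genes of the classical program, Nos2 (ENSMUSG00000020826, chromosome 11, 78920787 to 78960254) was low in both groups. It had 4.74, 2.33, 5.45 and 2.92 CPM in F187, F325, F331 and F368, and 12.5 in M408, 1.71 in M624, 3.69 in M351, 7.97 in M9 and 4.45 CPM in M664. M408 and M9 were above all p53-driven tumors and M624 was below them. Nos2 had a log2 fold change of 0.64 (standard error 0.61, edgeR adjusted p = 0.529). Of its counts, the 6 of M351 and the 10 of M9 compare with 4.95 and 5.49 counts of background estimated there.

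Cd86 (ENSMUSG00000022901, chromosome 16, 36603869 to 36666081), the costimulatory ligand of CD28, had nearly equal means. They were 5.80 ± 1.79 CPM (SD, n = 4) for p53-driven and 5.99 ± 3.67 CPM (SD, n = 5) for Myc-knockin, with a log2 fold change of -0.01 (standard error 0.69, edgeR adjusted p = 0.993). Its p53-driven values ran from 4.28 in F325 to 7.90 CPM in F368, and its Myc-knockin values from 0.419 in M624 to 10.4 CPM in M9. Of its counts, the 13 of M9, the 12 of M351 and the 11 of F187 compare with 4.55, 4.11 and 2.61 of background estimated there. With background subtracted the log2 fold change was -0.11. The sign of its fold change depended on the scaling and on single tumors.

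Il10 (ENSMUSG00000016529, chromosome 1, 131019845 to 131024974) was too low to test. It had 1, 3, 13 and 2 counts in F187, F325, F331 and F368. The Myc-knockin counts were 2 in M408, 0 in M624, 3 in M351, 3 in M9 and 12 in M664, and the 0 in M624 allows up to 0.114 CPM. F331 and M664 held most of the counts, and the 3 counts in M351 and in M9 compare with 1.47 and 1.63 counts of background estimated there.

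Within a tumor, Arg1 and Nos2 can be set against each other, since both enzymes draw on arginine and a share of counts does not depend on the library size. Arg1 made up 33.3% of the counts of the pair in F187 (95% Wilson interval 16.3% to 56.3%), 16.7% in F325, 7.35% in F331 and 7.69% in F368. In the Myc-knockin tumors the share was 83.8% in M408 (80.0% to 87.1%, of 421 counts), 83.8% in M351 (68.9% to 92.3%, of 37 counts), 43.4% in M664 (36.4% to 50.7%, of 182 counts), 26.2% in M624 and 23.1% in M9. M408, M351 and M664 were above every p53-driven tumor, while M624 and M9 were below F187 and above the other 3. The intervals cover counting error only, and the one for M9, from 8.18% to 50.3%, rests on 13 counts. The shares were not corrected for background, which was estimated in M9 at 2.77 of the 3 Arg1 and 5.49 of the 10 Nos2 counts. In M351 it was 2.50 of 31 and 4.95 of 6. The place of M9 among the tumors is therefore uncertain. Mrc1 against Cd86 showed no such spread, with Mrc1 at 90.9% to 96.7% of the counts of that pair in the p53-driven and 79.4% to 97.1% in the Myc-knockin tumors.

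**Figure D3:**
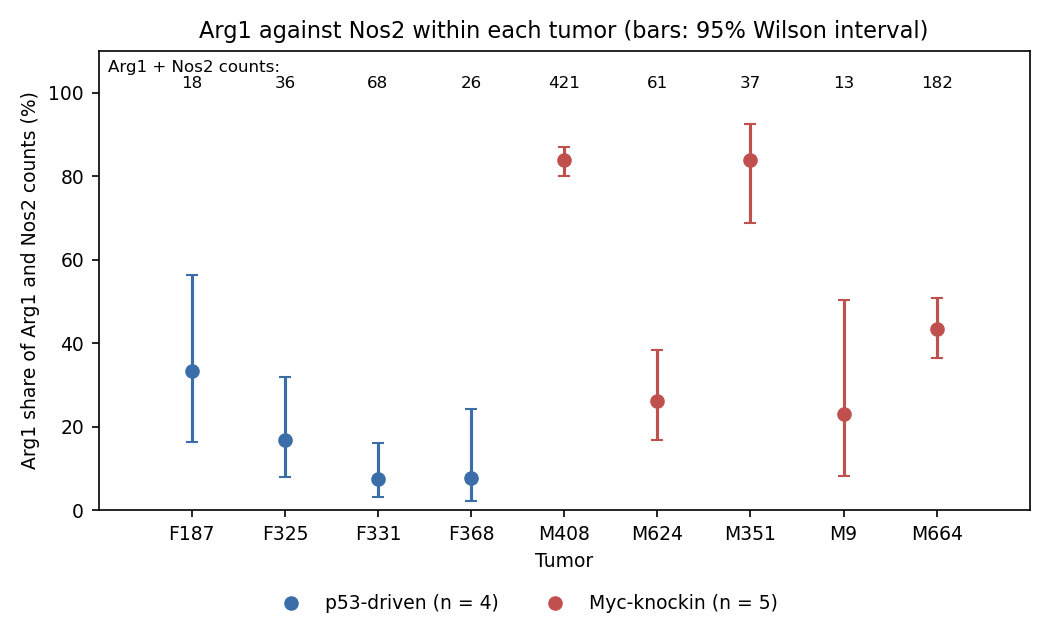
Share of Arg1 among the counts of Arg1 and Nos2 in each tumor, in percent, with 95% Wilson intervals as bars and the number of counts of the pair printed above each tumor. M408 and M351 lie near 84%, M664 at 43.4%, and the 4 p53-driven tumors at or below 33.3%.

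Levels of different genes were compared as CPM per kilobase of exon. In the p53-driven tumors the order of the means was Mrc1 (17.4 ± 11.4), Mertk (14.4), Cd163 (10.7), Msr1 (5.15), Retnla (3.22), Cd86 (1.58), Chil3 just under it, Nos2 (0.875), Arg1 (0.394) and Il10 (0.381), so the scavenger and uptake receptors led. In the Myc-knockin tumors it was Mrc1 (9.36 ± 9.60), Chil3 (8.16), Arg1 (8.09), Mertk (6.22), Cd163 (4.41), Msr1 (4.26), Cd86 (1.64), Nos2 (1.37), Retnla (0.922) and Il10 (0.782). The place of Chil3 and Arg1 there is that of M408, whose values set both means. Of the 9 pairs of neighbors in each order, the difference exceeded the larger of their SDs for 1 in the p53-driven tumors, Nos2 over Arg1, and for 0 in the Myc-knockin tumors.

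The 8 genes were also tested relative to the macrophages in the tumor, with each library scaled by the geometric mean of the 14 macrophage markers in place of TMM. On this scale the receptors had log2 fold changes from -0.44 to 0.64 and Arg1 was called higher. The log2 fold change was 5.50 for Arg1 (standard error 1.34, edgeR adjusted p = 0.0215), and it was 3.38 for Chil3 (standard error 1.21, adjusted p = 0.0589). It was 0.10 for Mrc1, -0.44 for Cd163, 0.64 for Msr1, -0.27 for Mertk, 1.53 for Nos2 and 0.90 for Cd86, none of which passed the test. This scaling brought the median of all genes to 1.17 and called 17.2% of all genes, nearly all of them higher. On this scale 0 stands for a change equal to that of the markers, and 1.17 for the change of the median gene. A call of higher was thus common among all genes and not particular to Arg1. With the genes of C1q alone as the yardstick, 0 of the 8 were called and 0.15% of all genes were. The log2 fold changes of Mrc1, Cd163, Msr1 and Mertk were then -0.46, -1.05, -0.12 and -0.92. How far the receptors followed the macrophage markers thus depended on the yardstick. With all 14 markers, Arg1 had a log2 fold change of 5.05 to 5.18 without F325, F331 or F368, in fits that called 0 of all genes, and it was not tested without M408, M351 or M664.

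**Figure D4:**
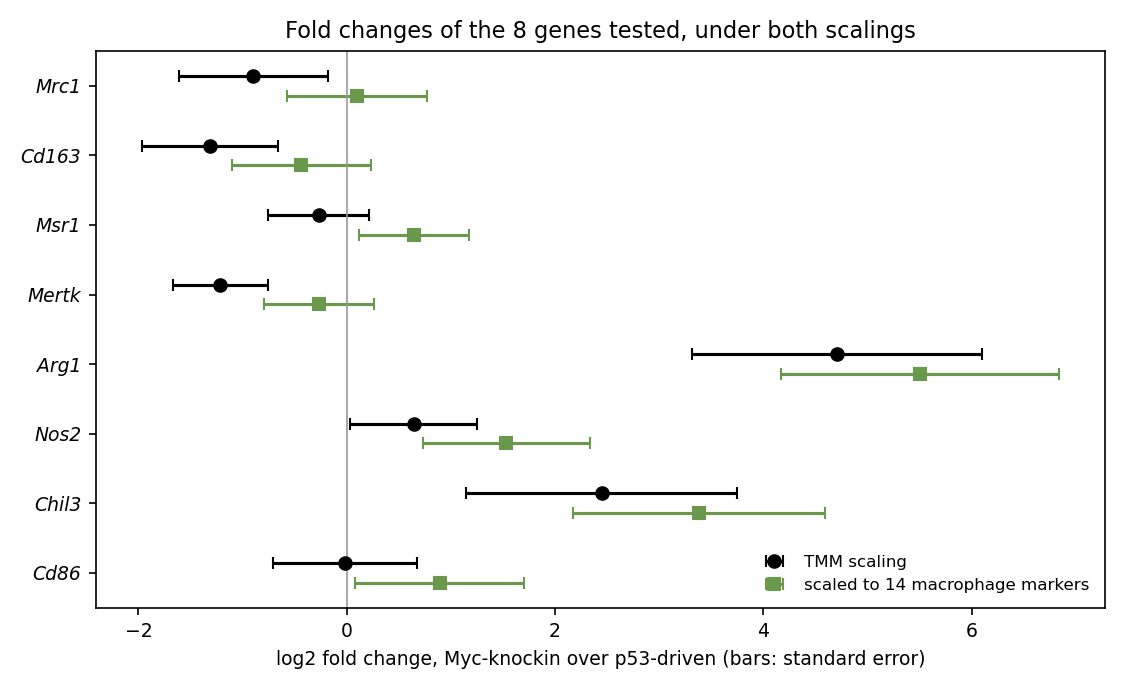
Log2 fold changes, Myc-knockin over p53-driven, of the 8 genes tested, with standard errors as bars, under TMM scaling (black circles) and relative to 14 macrophage markers (green squares). Each gene lies further to the right relative to the markers, Mrc1, Cd163, Msr1 and Mertk then lie between -0.44 and 0.64, and Arg1 lies at 4.71 and 5.50.

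The yardstick was itself uneven. Of the 14 macrophage markers, 2 were called lower, Csf1r (log2 fold change -2.47, edgeR adjusted p = 0.0243), the receptor for CSF-1, and Tyrobp (-2.13, adjusted p = 0.0392), a signaling adaptor shared with osteoclasts. The other 12 were not called, and C1qa, C1qb and C1qc had log2 fold changes of 0.17, 0.56 and -0.05. Of 10 osteoclast markers, 7 were called lower, with sums of 2934 to 14697 CPM in the p53-driven and 175 to 2685 CPM in the Myc-knockin tumors. Endothelial markers summed to 353 to 477 and 85.0 to 459 CPM. Osteoclasts share the myeloid lineage with macrophages, and their part in the receptor values was not tested.

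The other genes of these pathways were taken from 7 lists of 129 genes in all, of which 100 were tested and 5 were called, all of them lower, where 3.0% of all genes were called lower and 2.26% higher. Among 16 tested scavenger receptors other than those above, 1 was called lower and 0 higher, with a median log2 fold change of -0.44. That gene was Mrc2, the endocytic receptor for collagen, at 561 ± 124 CPM (SD, n = 4) for p53-driven and 92.1 ± 29.0 CPM (SD, n = 5) for Myc-knockin (log2 fold change -2.60, standard error 0.33, edgeR adjusted p = 0.0137). The groups did not overlap for Mrc2. Mesenchymal cells such as osteoblasts also make it, and 2 of 10 osteoblast markers were called lower and 0 higher in the same fit.

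Of 18 tested genes for the uptake of apoptotic cells, the process that Mertk serves, 2 were called lower and 0 higher, and 14 had a negative fold change. Itgav, an integrin chain that binds apoptotic cells through bridging proteins and is made by many cell types, had 587 ± 149 and 104 ± 41.4 CPM (log2 fold change -2.50, edgeR adjusted p = 0.0175). Elmo1, which relays uptake signals to Rac, had 129 ± 28.8 and 41.6 ± 13.4 CPM (log2 fold change -1.63, edgeR adjusted p = 0.0223). Neither had overlapping groups. Leaving out F331 or F368 ended all 5 of the calls among the pathway genes, in fits that called 6 and 5 of all genes, with log2 fold changes still at -2.32 and -2.57 for Itgav and at -2.56 and -2.48 for Mrc2.

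Among 20 tested cytokines and receptors upstream of polarization, 2 were called lower and 0 higher. Csf1, the growth factor on which most macrophages and osteoclasts depend, had 249 ± 80.6 CPM in the p53-driven and 31.4 ± 14.4 in the Myc-knockin tumors (log2 fold change -3.0, standard error 0.42, edgeR adjusted p = 0.0148). Ifngr2, a chain of the interferon-gamma receptor, had 89.6 ± 8.68 and 35.0 ± 15.6 CPM (log2 fold change -1.37, edgeR adjusted p = 0.0421), a call that was lost under 5 of 10 other settings and in 7 of the 9 fits with a tumor left out, where its log2 fold change ran from -1.59 to -1.15. The ligands that drive the programs themselves were scarcely detected. Il4 stayed at or below 2.46 CPM in every tumor, Il13 and Ifng did not reach the level needed for a test, and Csf2 had 0 counts in all p53-driven tumors.

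The response lists gave 0 calls with edgeR, among 11 tested genes of the IL-4 and IL-13 response (median log2 fold change 0.08) and 16 of the response to interferon-gamma and lipopolysaccharide (median 0.16). In the former, Ppargc1b, a coactivator of mitochondrial genes, had a log2 fold change of -0.99 (edgeR adjusted p = 0.129). In the latter list the transcription factor Irf1 had a log2 fold change of -0.84 (edgeR adjusted p = 0.175). Of 5 tested CD28 family genes 0 were called. Icosl, the ligand of ICOS, had 4.17 and 9.07 CPM without overlap (log2 fold change 1.12, edgeR adjusted p = 0.0819), and Cd28 had 16.7 and 7.06 CPM (log2 fold change -1.31, adjusted p = 0.262).

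Of 16 tested genes of arginine metabolism 0 were called by edgeR, and 12 had a positive fold change, with a median of 0.61. Slc7a2, the cationic amino acid transporter that supplies macrophages with arginine, had 29.5 ± 14.4 CPM in the p53-driven and 87.1 ± 33.6 in the Myc-knockin tumors (log2 fold change 1.57, edgeR adjusted p = 0.0542), and it belongs to the IL-4 and IL-13 list as well. Ass1, which rebuilds arginine from citrulline, had 0.963 ± 0.741 and 25.3 ± 45.1 CPM (log2 fold change 4.95, standard error 1.31, edgeR adjusted p = 0.0512). The groups did not overlap for either gene. The highest Ass1 value, 106 CPM, was in M624, the tumor with the lowest geometric mean of the macrophage markers, so Ass1 and Arg1 were high in different tumors. Without M624 the log2 fold change of Ass1 was 2.55.

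**Figure D5:**
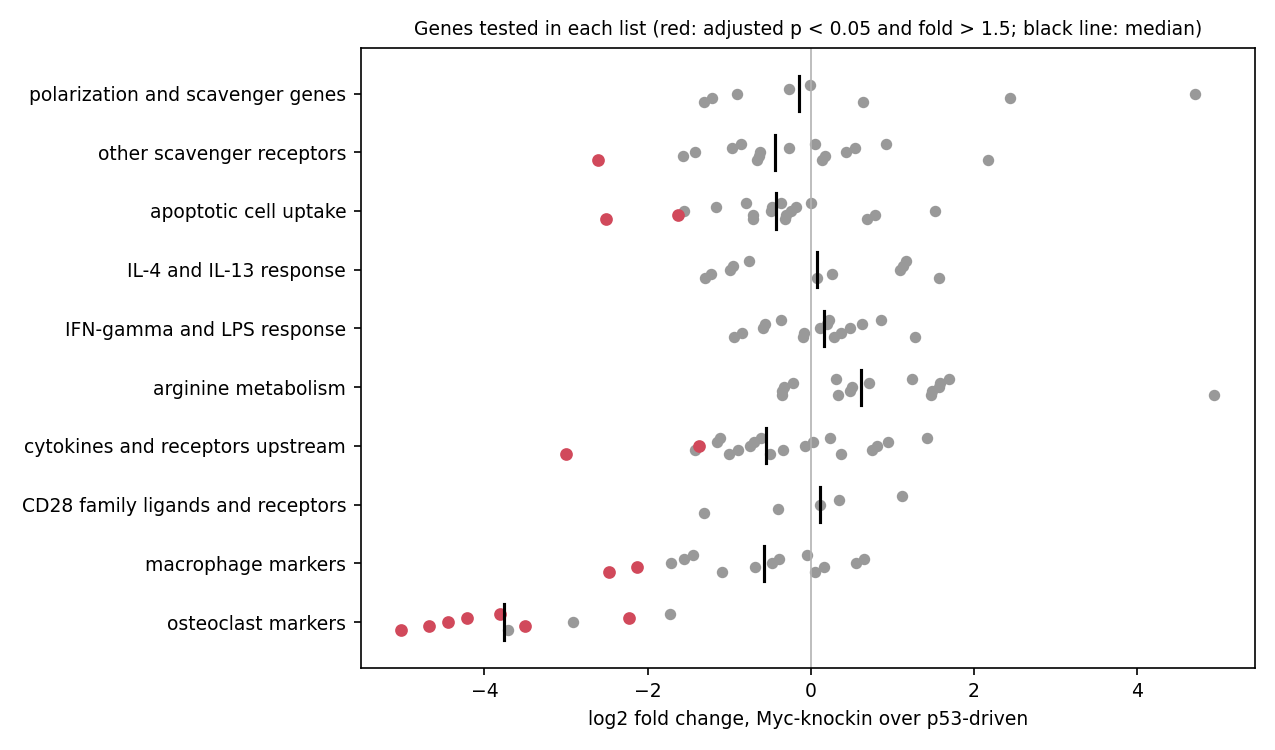
Log2 fold changes, Myc-knockin over p53-driven, of the tested genes in the polarization and scavenger list, the 7 pathway lists and 2 marker lists, with 1 point per gene, called genes in red and the median of each list as a black line. Red points are absent from the top row, all red points lie below 0, and 7 of the 10 osteoclast markers are red.

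The pattern of each gene over the 9 tumors was compared with that of every other gene tested by Pearson's r on log2 CPM, which is a description, since all values come from the same libraries and share their depth and make-up. Mrc1 was most like Pitpnc1 (r = 0.958), Cd163 like Fam149a (0.953), Msr1 like Ndufa12-ps (0.952), Mertk like Chn2 (0.971) and Cd86 like Lair1 (0.972). Arg1 was most like St8sia1 (0.953), Chil3 like Hhex (0.981), and Nos2 like Klhl2 (0.963). Among the genes themselves, r was 0.926 for Mrc1 with Mertk, 0.849 for Mrc1 with Msr1, 0.838 for Cd163 with Mertk and 0.753 for Arg1 with Chil3. It was -0.06 for Arg1 with Mertk and -0.01 for Arg1 with Cd163. Other pairs lay between, such as 0.464 for Cd163 with Msr1, 0.656 for Arg1 with Nos2, 0.690 for Chil3 with Mrc1 and 0.243 for Arg1 with Msr1.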

How the data were processed

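Tumor RNA was sequenced in 4 p53-driven and 5 Myc-knockin tumors. Per the labels and the methods, the authors trimmed reads with Trim Galore, aligned them with STAR to mm10, counted them with featureCounts and deposited raw counts per gene, without normalization. The strand setting and the handling of multimapping reads are not given in the sources used here. Sample labels and the names of the table's columns do not match. The genotype of 6 columns was taken from the study's supporting data and that of M351, M9 and M664 from their letter, so tumors served only as members of a group.

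Counts were tested with glmQLFit and glmQLFTest of edgeR 4.0.16 in R 4.3.3 after TMM normalization and filterByExpr (minimum count 10), over 15365 genes. DESeq2 1.42.0 and limma-voom (limma 3.58.1) were alternatives, as were upper-quartile and library-size scaling, other filters and thresholds, removal of satellite genes, subtraction of background, and omission of libraries. The code was tested on simulated data. Total counts ran from 2716322 to 17073285, and floors of 3 counts and intervals cover counting error only. Gene positions and exon lengths are from GENCODE M21. The genes named from each pathway list were those called (up to 3 in each direction by size of change), and otherwise the 2 with the smallest p, and likeness was ranked over all genes tested. One gene that this rule names is not reported here. Genes named beyond them, such as Il4, Chil4 and the markers, were chosen after their values were seen. The 10 genes and all lists were chosen with earlier results of these data known.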

Additional observations from a re-analysis of the deposited data

Results flagged for a closer look

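Of the values per tumor, 4 stood apart from the rest of their group, where the gap to the nearest tumor took up a larger part of the group's range than is usual for so few values. In the Myc-knockin group these were the values of M408 for Mrc1 (165 CPM), Arg1 (64.6 CPM) and Chil3 (51.5 CPM). In the p53-driven group it was the value of F187 for Arg1 (2.37 CPM), which rests on 6 counts. The screen covered 20 groups of values on the CPM scale, under a rule made for normally distributed values. All 4 marked values were the highest of their group, and M408 was marked for several genes, so the groups are not independent. How many values chance alone would mark is therefore not known. M408 and F187 are both libraries with satellite reads, and the part of this in their values was not tested.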

How the results depend on the processing

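Against 0 of the genes called by edgeR, 1 was called with DESeq2, with all genes of at least 1 count and at an adjusted p under 0.10 (Arg1 each time) and without F187, M351, M408 and M9 (Mrc1), and 0 to 1 with a tumor left out. Relative to macrophage markers, against 1 called, 0 were with C1q alone, where 0.15% of all genes were called. It was also 0 with at least 10 counts in every tumor (32.3% of all genes) and without those 4 libraries (23.2%). With all genes of at least 1 count it was 2 (3.63% of all genes), and 2 at an adjusted p under 0.10. Without M624 and M664 it was 3 (Nos2, Chil3 and Cd86, where 39.8% of all genes were called). Leaving out a tumor gave 0 to 2. It was 0 without F325, F331 or F368, where 0 of all genes were called. It was also 0 without M408 or M351, where 17.7% and 14.4% were, and 2 without M9 or M664, where 19.5% and 49.0% were. Of the pathway genes, against 5 called, 1 was with library size alone, 18 with DESeq2, 11 with limma-voom, 12 with at least 10 counts in every tumor, 8 with background subtracted and 21 without the 4 libraries, where 0.885%, 17.2%, 10.8%, 14.2%, 7.83% and 27.9% of all genes were called, and 18 at an adjusted p under 0.10. With a tumor left out it was 0 to 11 (0 without F331 or F368 and 1 without F325, where at most 8 of all genes were called). It was 11 without M408 and 8 without M9, where 5.47% and 10.4% of all genes were called. The shares of all genes at an adjusted p under 0.10 were not computed.

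Log2 fold changes turned sign for Msr1 (0.072 without M624 and M664), Nos2 and Chil3 (-0.19 and -0.75 without the 4 libraries) and Cd86 (0.17 with upper-quartile scaling, 0.0066 with DESeq2, 0.073 where every tumor had at least 10 counts, and 0.39 without M624 and M664). With a tumor left out, Msr1 ran from -0.71 to 0.034 and Cd86 from -0.29 to 0.37. Relative to macrophage markers, Mrc1 turned to -0.46 and Msr1 to -0.12 with C1q alone. Without the 4 libraries Mrc1 turned to -2.23, Msr1 to -0.28, Chil3 to -0.88 and Cd86 to -0.73. Without M624 and M664 Cd163 turned to 0.15 and Mertk to 0.20, and with a tumor left out Mrc1 ran from -0.72 to 0.51. The causes were not tested. Arg1 fell under the filter without the 4 libraries, without M624 and M664, with background subtracted and where 10 counts were needed in each tumor, so it has no value there. Higher genes were 43.0% of all calls, 64.5% with upper-quartile scaling and 58.0% with DESeq2. No paired analysis was possible because the table's columns carry no replicate numbers.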
